A study of Mus musculus with 6 samples.

Results

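The keratin genes of epidermis and hair follicle were examined in diabetic mouse wounds. They were taken as every row of the deposited expression table whose Ensembl gene ID maps to a protein-coding mouse gene named Krt followed by a number and, at most, 1 letter. This gave 53 of the 33184 genes in the table, and no expression value was used to choose them. Krt74 was left out because the annotation calls it a pseudogene, and Krt85 was not analysed here. The 53 genes were grouped by the layer they are known from: 3 basal, 7 suprabasal, 4 wound-edge, 7 inner root sheath, 15 hair shaft, 2 of the companion layer and upper follicle, and 15 of simple, mucosal or other epithelia.

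Keratins are the intermediate filament proteins of epithelial cells, and each filament pairs a type I with a type II chain. Keratinocytes switch pairs as they leave the basal layer, and those at a wound margin turn on a stress set. In the follicle, the inner root sheath that moulds the growing hair and the hair shaft itself each have their own keratins, the latter rich in cysteine, and both are made while a follicle grows.

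The 6 libraries are RNA-seq libraries of skin wounds of db/db mice, which lack a working leptin receptor and become obese and diabetic; the study's methods give their background as C57BL/Ks. A full-thickness dorsal wound of 6 mm was made, control siRNA (NC, 3 libraries) or siRNA against SFRP2, a secreted modulator of Wnt signalling (SFRP2-siRNA, 3 libraries), was injected around it 1 day after injury (dpi1), and the wound was taken at dpi4. The sample titles say day 3, and age is not given in the sources used here. No unwounded skin and no wild-type mice were among these libraries, and nothing states that the libraries are separate animals, so p-values measure only the spread between them. The treated libraries carry the numbers that the study's list of siRNA sequences also uses, and a different sequence in each library cannot be told apart from a difference between wounds.

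Each library rested on a total of 42.9 M to 47.1 M reads (M for mega). Sfrp2 (ENSMUSG00000027996), the target, had 11.6, 40.6 and 14.1 FPKM in NC 1, 2 and 3 against 50.6, 54.6 and 55.2 in those labelled SFRP2-siRNA 1, 2 and 3. Its transcript was thus higher, not lower, under the siRNA label, with a log2 fold change of 1.45 (SE 0.43, adjusted p = 0.518 with limma). By immunofluorescence at dpi3, the paper reports less SFRP2 protein in wounds given the siRNA. Protein was not measured in these libraries. Every direction below is therefore one of library labels and is not read as an effect of a loss of Sfrp2. The library labelled SFRP2-siRNA 1 stood apart from the rest. Over the 16005 genes tested, its correlation with the other libraries was 0.889 to 0.930, and all other pairs were at 0.951 to 0.976. Results are therefore given with and without it.

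FPKM (by name fragments, here reads with mates counted singly, divided by gene length in kilobases and by library depth) allows levels to be compared between genes. Keratins made up 2.03%, 3.25% and 4.34% of all FPKM in NC 1, 2 and 3 and 2.58%, 4.40% and 3.0% in SFRP2-siRNA 1, 2 and 3, so the groups overlapped. Krt14 ranked between 5 and 16 among all genes of a library. A mean under 0.5 FPKM kept 7 members from being tested: Krt4, Krt7, Krt9, Krt12, Krt13, Krt76 and Krt88, the highest value among them being 0.438 FPKM.

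No keratin gene was called different between the groups. The limma test on log2(FPKM + 1), with a threshold of adjusted p under 0.05 and an absolute log2 fold change above 1, called 0 of 46 tested members and 0% of all genes, and the lowest adjusted p of a member was 0.518. The paper, with DESeq2 and the same thresholds, does report differentially expressed genes in wounds at dpi4. Whether keratin genes were among them was not examined here. At an unadjusted p under 0.05 with limma there was 1 member, Krt42, against 9.58% of all genes. Krt42 was lower in SFRP2-siRNA, as were 2.86% of all genes at that level. The 46 fold changes had a median of -0.68 on the log2 scale, with 10 members higher and 36 lower in SFRP2-siRNA, where the median of all genes was 0.125. The groups did not overlap for 1 tested member, Krt20, which was higher, against 13.9% of all genes, and for 0 members that were lower, against 3.92%. Of the untested members, Krt4 and Krt13 were higher and Krt12 lower in SFRP2-siRNA without overlap in FPKM, on few reads. Krt4 had 14 to 39 reads a library and Krt12 0 to 7. Krt13 had 0, 2 and 2 reads in NC 1, 2 and 3 and 2, 4 and 6 in SFRP2-siRNA 1, 2 and 3, so its reads were tied between groups. The share of all untested genes without overlap was not counted.

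This median rested on SFRP2-siRNA 1. That library held the lowest of the 6 values for 33 of the 46 members, as it did for 14.3% of all genes, and the highest for 4, against 27.9%. In 23 members it lay more than 10-fold below the lowest of the other 5 libraries, which was so for 1.67% of all genes. The 4 highest were the basal genes Krt5 and Krt14, the wound-edge gene Krt16 and Krt24. In a bulk library, fewer cells of a layer and less RNA per cell cannot be told apart. Without this library the median was 0.27, no member was called, and the lowest adjusted p with limma was 0.246. Unadjusted p-values under 0.05 then numbered 13, all higher in SFRP2-siRNA 2 and 3, of which 12 were hair shaft keratins and the other was Krt8; the share of all genes higher at that level was 5.56%. The groups of 2 and 3 libraries then did not overlap for 16 members that were higher, against 23.7% of all genes, and for 0 that were lower, against 7.97%. These fits left the library out with its values known, and they set 2 libraries against 3.

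**Figure D1:**
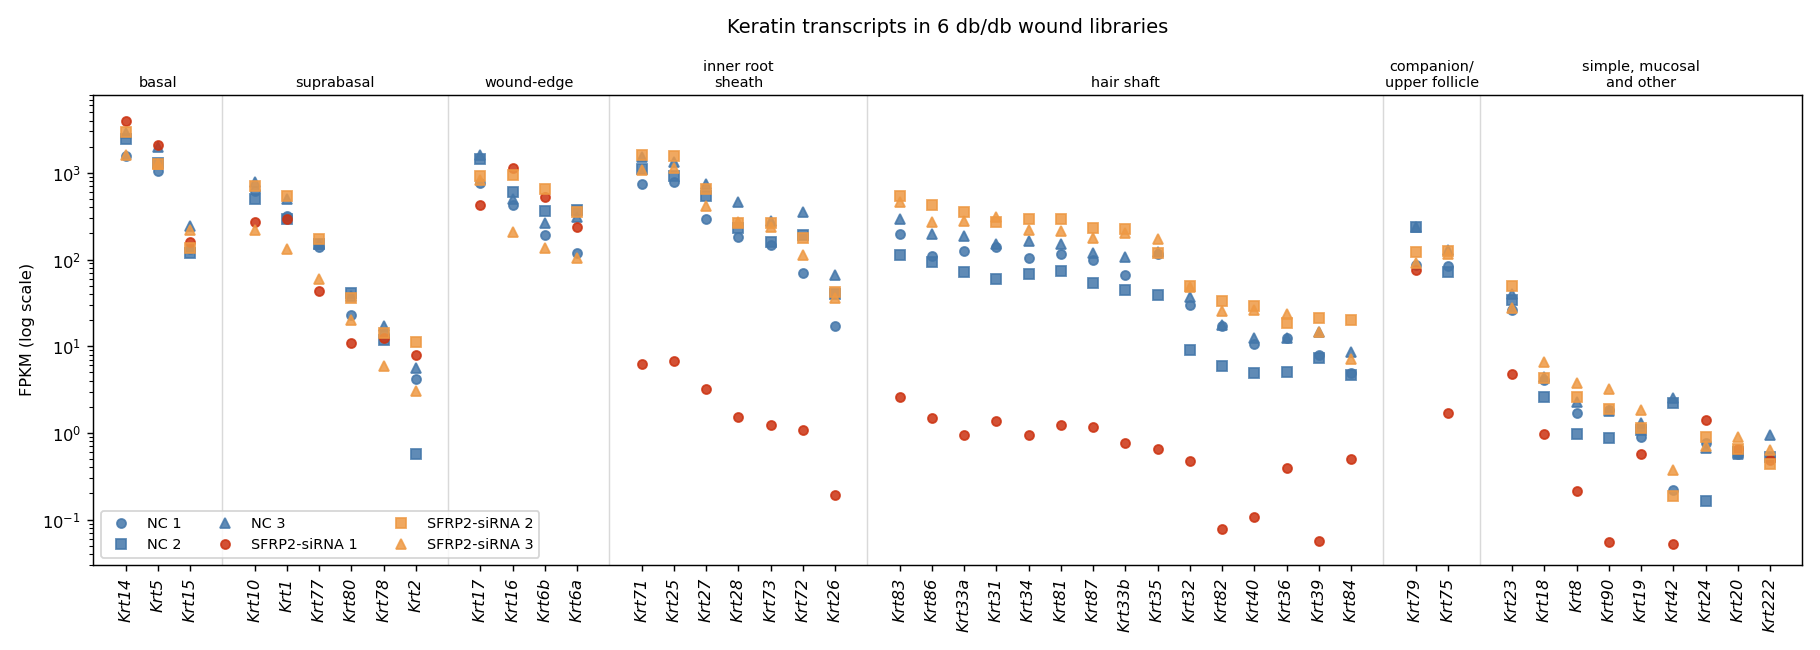
FPKM (log axis) of the 46 tested keratin genes in each of the 6 libraries, grouped by layer. NC libraries are blue, SFRP2-siRNA 2 and 3 orange and SFRP2-siRNA 1 red, which lies close to the others for basal and wound-edge keratins and far below them for all 7 inner root sheath and all 15 hair shaft keratins.

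**Figure D2:**
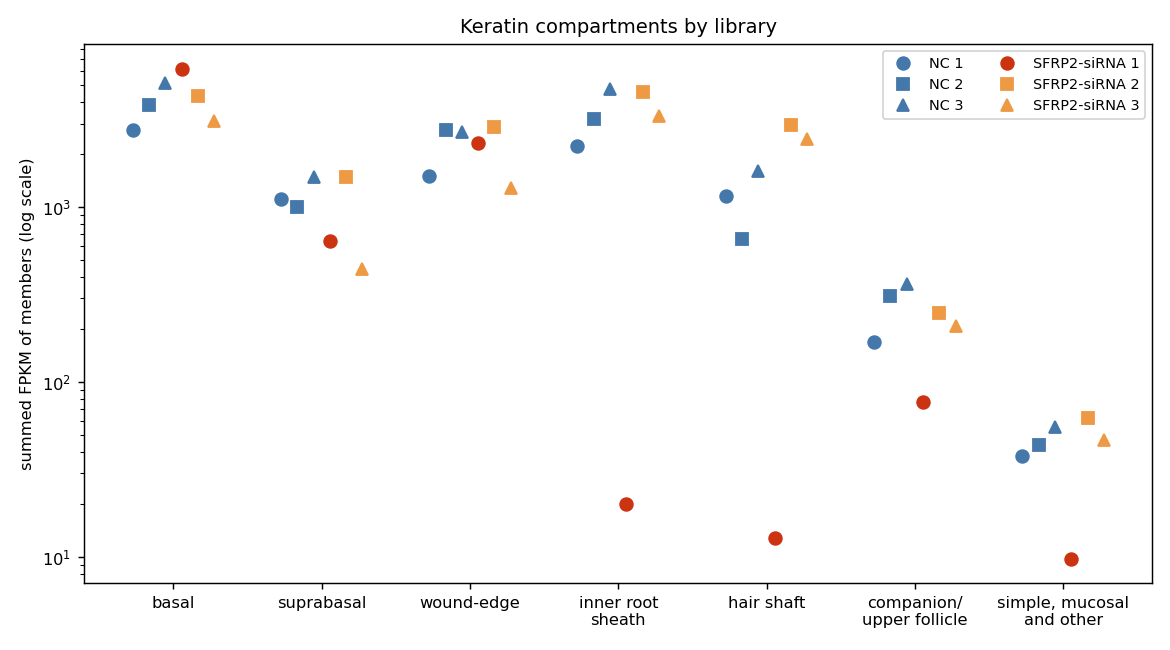
Summed FPKM (log axis) of the members of each layer, 1 point per library. In SFRP2-siRNA 1 the inner root sheath sum was 20.1 and the hair shaft sum 12.7, while its basal sum of 6188 was the highest of the 6.

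Basal keratins mark the proliferating layer on the basement membrane. Krt5 and Krt14 form its filament pair, and Krt15 is made by basal cells and by stem cells of the follicle bulge. Levels of Krt14 (ENSMUSG00000045545) were 1571, 2431 and 2886 FPKM in NC 1, 2 and 3 and 3929.7, 2919 and 1627 in SFRP2-siRNA 1, 2 and 3. NC 1 was lowest and SFRP2-siRNA 1 highest, the groups overlapped, and the comparison gave a log2 fold change of 0.25 (SE 0.44, adjusted p = 0.793 with limma). For Krt5 (ENSMUSG00000061527), the values were 1056, 1288 and 1959.8 FPKM in NC 1, 2 and 3 and 2097, 1258 and 1261 in SFRP2-siRNA 1, 2 and 3, which gave a log2 fold change of 0.11 (SE 0.36, adjusted p = 0.898 with limma). Krt15 (ENSMUSG00000054146) was measured at 132, 119 and 241 FPKM in NC 1, 2 and 3 and 161, 135 and 219 in SFRP2-siRNA 1, 2 and 3, and the groups overlapped here too. The lowest exact permutation p of the 3 genes was 0.5 (two-sided, smallest possible p 0.1). No basal keratin was lowest in SFRP2-siRNA 1, whose 3 values were 1.36 to 2.50 times the lowest of the other 5. Summed basal FPKM were 2758, 3837 and 5086 in NC 1, 2 and 3 and 6188, 4312 and 3107 in SFRP2-siRNA 1, 2 and 3, or 3894 ± 1165 in NC and 4536 ± 1553 in SFRP2-siRNA (SD, n = 3 each). The means thus differed by less than 1 SD.

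Suprabasal keratins are made once keratinocytes begin to differentiate. Krt1 and Krt10 are the main pair, Krt77 is a type II keratin of suprabasal cells, and Krt80 is found in many differentiating epithelia. Krt10 (ENSMUSG00000019761) had 618, 501 and 785 FPKM in NC 1, 2 and 3 and 271, 714 and 222 in SFRP2-siRNA 1, 2 and 3. SFRP2-siRNA 1 and 3 lay below every NC library and SFRP2-siRNA 2 within their range, and the comparison gave a log2 fold change of -0.83 (SE 0.46, adjusted p = 0.536 with limma). Krt77 (ENSMUSG00000067594) was at 141, 149.9 and 151 FPKM in NC 1, 2 and 3 and 42.9, 173 and 60.4 in SFRP2-siRNA 1, 2 and 3, again with SFRP2-siRNA 1 and 3 below every NC library, and had a log2 fold change of -0.93 (SE 0.48, adjusted p = 0.531 with limma). Leaving out 1 library moved both fold changes by over 1.5 times, to -1.34 for Krt10 and -1.51 for Krt77 without SFRP2-siRNA 2, to -0.50 for Krt10 without SFRP2-siRNA 3 and to -0.52 for Krt77 without SFRP2-siRNA 1. Krt1 (ENSMUSG00000046834) was at 319, 295 and 492 FPKM in NC 1, 2 and 3 and 294, 536 and 131 in SFRP2-siRNA 1, 2 and 3, with SFRP2-siRNA 1 just under the NC range, SFRP2-siRNA 3 well under it and SFRP2-siRNA 2 above it. Krt80 (ENSMUSG00000037185) was at 22.7, 40.7 and 37.8 FPKM in NC 1, 2 and 3 and 10.9, 36.3 and 19.9 in SFRP2-siRNA 1, 2 and 3, and here too SFRP2-siRNA 1 and 3 lay under the NC range. The remaining members were lower in level: Krt78 spanned 5.94 to 17.2 FPKM, Krt2, a keratin of the upper epidermis, 0.564 to 11.1 FPKM, and Krt9, a keratin of palms and soles, was not tested. Of the 6 tested members 5 were lower in SFRP2-siRNA and 1, Krt2, was higher. Their median log2 fold change was -0.56, with -0.48 without SFRP2-siRNA 1, -0.98 without SFRP2-siRNA 2 and -0.30 without SFRP2-siRNA 3, the lowest exact permutation p being 0.2. The low library among the other 5 was SFRP2-siRNA 3 for 5 of the 6 members. Summed suprabasal FPKM were 1118, 999 and 1489 in NC 1, 2 and 3 and 639, 1484 and 442 in SFRP2-siRNA 1, 2 and 3, or 1202 ± 256 in NC and 855 ± 554 in SFRP2-siRNA (SD, n = 3 each).

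Wound-edge keratins are induced in keratinocytes that migrate into a wound; Krt6a and Krt6b are near-identical type II genes, Krt16 their usual partner, and Krt17 is also made in the outer root sheath of resting skin. Krt16 (ENSMUSG00000053797) was at 429, 593 and 495 FPKM in NC 1, 2 and 3 and 1124, 949 and 205 in SFRP2-siRNA 1, 2 and 3. SFRP2-siRNA 1 and 2 lay above every NC library and SFRP2-siRNA 3 below every one. Across this split within the treated group, the comparison gave a log2 fold change of 0.27 (SE 0.64, adjusted p = 0.852 with limma). Krt6b (ENSMUSG00000023041) was split in the same way, at 191, 364 and 261 FPKM in NC 1, 2 and 3 and 528, 645 and 135 in SFRP2-siRNA 1, 2 and 3. Krt6a (ENSMUSG00000058354) was at 118, 374 and 308 FPKM in NC 1, 2 and 3 and 237, 351 and 104 in SFRP2-siRNA 1, 2 and 3, and only SFRP2-siRNA 3 lay outside the NC range. The longest transcripts of Krt6a and Krt6b are 93.0% identical, and 36.2% of all 75-base windows of Krt6a occur unchanged in Krt6b, so reads may be divided between them and their separate values are uncertain. Krt17 (ENSMUSG00000035557) differed from this set. Its values were 767, 1434 and 1625 FPKM in NC 1, 2 and 3 and 423, 928 and 833 in SFRP2-siRNA 1, 2 and 3, with SFRP2-siRNA 1 lowest, and the fold change was -0.47 without that library against -0.82 with all 6 (SE 0.43, adjusted p = 0.535 with limma). The group as a whole had 2 members higher and 2 lower, a median of 0.026, which was -0.25 without SFRP2-siRNA 1, -0.33 without SFRP2-siRNA 2 and 0.66 without SFRP2-siRNA 3, and -0.28, 0.25 and 0.11 without NC 1, 2 and 3, with a lowest exact permutation p of 0.3. Its summed FPKM were 2319.8 ± 707 in NC and 2154 ± 809 in SFRP2-siRNA (SD, n = 3 each).

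Keratins of the inner root sheath surround the hair shaft as it forms. All 7 members passed the filter, and several are among the most abundant transcripts of these wounds outside SFRP2-siRNA 1. Krt25 (ENSMUSG00000035831), a type I chain, was at 786, 909.8 and 1320.1 FPKM in NC 1, 2 and 3 and 6.69, 1562 and 1147 in SFRP2-siRNA 1, 2 and 3. Krt71 (ENSMUSG00000051879), a type II chain whose mutation gives curly or sparse coats in several mammals, was at 744, 1099 and 1508 FPKM in NC 1, 2 and 3 and 6.17, 1591 and 1080.0 in SFRP2-siRNA 1, 2 and 3. These 5 high libraries differed among themselves by at most 2.14-fold for Krt71, and SFRP2-siRNA 1 lay 121-fold below the lowest of them. Krt27 (ENSMUSG00000017588), another type I chain, was at 294, 546 and 739.9 FPKM in NC 1, 2 and 3 and 3.20, 656 and 418 in SFRP2-siRNA 1, 2 and 3. Krt28 (ENSMUSG00000055937), also type I, was at 181, 231 and 464 FPKM in NC 1, 2 and 3 and 1.51, 261 and 271 in SFRP2-siRNA 1, 2 and 3. For Krt26, Krt72 and Krt73 the level in SFRP2-siRNA 1 was 0.191 to 1.24 FPKM, against 17.0 to 356 FPKM in the other libraries. Over the 7 members, SFRP2-siRNA 1 was 63.9-fold to 121-fold below the lowest other library, on 30 to 579 reads a gene, so transcripts were low and not absent. Krt74, not counted as a member, had 2 reads there and 132 to 447 in the other libraries.

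Every member of the layer was thus low in SFRP2-siRNA 1, and every one lay within or above the NC range in SFRP2-siRNA 2 and 3. Summed FPKM of the layer were 3384 ± 1261 in NC and 2626 ± 2342 in SFRP2-siRNA (SD, n = 3 each), and the mean of SFRP2-siRNA 2 and 3 was 3929. With all 6 libraries the 7 log2 fold changes ran from -2.28 to -1.58, with a median of -2.22, adjusted p-values from limma of 0.585 to 0.647 and a lowest exact permutation p of 0.4. Without SFRP2-siRNA 1 they ran from -0.25 to 0.45, with 5 members higher, 2 lower and a median of 0.11, and the lowest adjusted p with limma was 0.645. Among the 5 other libraries NC 1 was lowest for all 7 members, and NC 3 was highest for 5.

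Hair shaft keratins are the hard keratins of cortex and cuticle. The type I members are Krt31 to Krt36, Krt39 and Krt40, and the type II members Krt81 to Krt84, Krt86 and Krt87. Krt83 (ENSMUSG00000067613) was at 198, 113 and 296 FPKM in NC 1, 2 and 3 and 2.57, 540.2 and 457 in SFRP2-siRNA 1, 2 and 3. Krt86 (ENSMUSG00000067614) was at 110.5, 94.6 and 199 FPKM in NC 1, 2 and 3 and 1.50, 426 and 274 in SFRP2-siRNA 1, 2 and 3. SFRP2-siRNA 1 was thus lowest, SFRP2-siRNA 2 and 3 were above every NC library, and NC 2 was the lowest of the NC group. Krt33a (ENSMUSG00000035592), a type I cortex keratin, was at 124, 71.1 and 185 FPKM in NC 1, 2 and 3 and 0.949, 354 and 281 in SFRP2-siRNA 1, 2 and 3. Krt31 (ENSMUSG00000048981), of the same gene cluster, was at 141, 60.3 and 153 FPKM in NC 1, 2 and 3 and 1.39, 271 and 307 in SFRP2-siRNA 1, 2 and 3. In the other 11 members SFRP2-siRNA 1 was likewise lowest and NC 2 next to it, at levels from 4.70 to 297 FPKM outside SFRP2-siRNA 1 and 0.057 to 1.22 FPKM within it. There, the 15 members rested on 4 to 203 reads and lay 9.34-fold (Krt84) to 127-fold (Krt39) below the lowest other library. Of the type II genes, Krt81 and Krt86 share 30.4% of the 75-base windows of Krt81, and the type I pair Krt33a and Krt33b 3.98%, so their single values are less certain than the pattern they share.

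The treated libraries departed from NC in opposite directions in this layer. Its summed FPKM were 1158, 655 and 1596 in NC 1, 2 and 3 and 12.7, 2929 and 2454 in SFRP2-siRNA 1, 2 and 3, or 1137 ± 471 in NC and 1799 ± 1565 in SFRP2-siRNA (SD, n = 3 each). With all 6 libraries 15 of 15 members were lower in SFRP2-siRNA, by a median of -0.92, and no test passed (adjusted p with limma 0.717 to 0.999; lowest exact permutation p 0.9). Without SFRP2-siRNA 1 all 15 were higher, by 0.79 to 1.64 with a median of 1.24, where the median of all genes was 0.146. SFRP2-siRNA 2 and 3 then lay above all 3 NC libraries for 13 of the 15 members, the exceptions being Krt35 and Krt84; 23.7% of all genes did so. At an unadjusted p with limma under 0.05 there were 12 of 15, and the lowest adjusted p with limma was 0.246, so the higher level in these libraries did not pass adjustment over all genes either. The NC group was itself uneven. NC 2 was the lowest of the 5 other libraries for all 15 members, whereas for the inner root sheath that place was taken by NC 1. The lowest of these libraries was thus not the same for the 2 follicle layers. The low place of NC 1 was not particular to the inner root sheath. Of the marker lists given below, NC 1 was lowest of the 5 for 11 of 14 pan-epithelial, 7 of 7 skeletal muscle and 0 of 7 adipocyte genes.

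**Figure D3:**
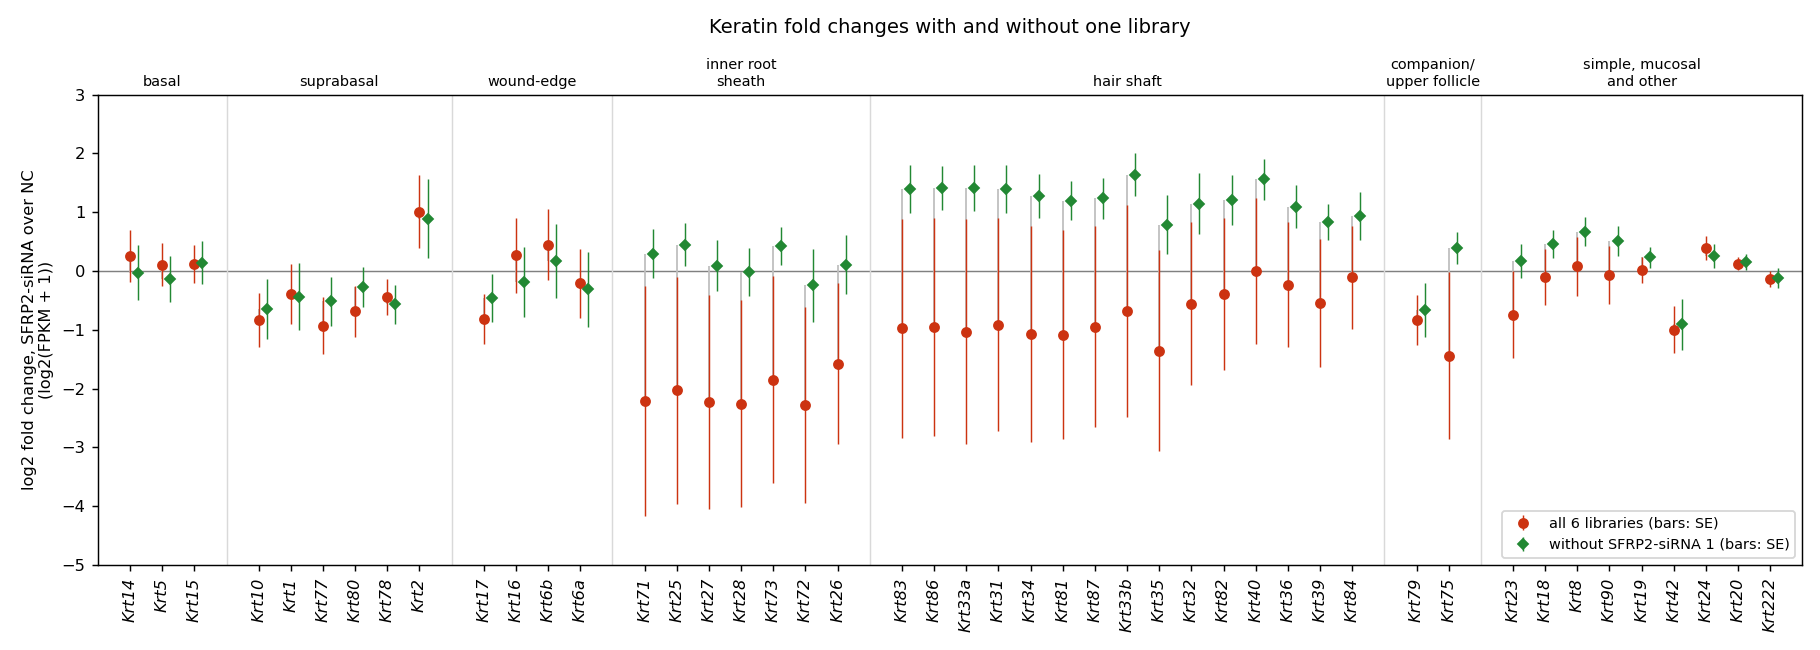
Log2 fold change of SFRP2-siRNA over NC on the log2(FPKM + 1) scale, with standard errors, for the 46 tested members by layer, from all 6 libraries (red circles) and without SFRP2-siRNA 1 (green diamonds). Leaving the library out moved the hair shaft median from -0.92 to 1.24 and the inner root sheath median from -2.22 to 0.11, and moved the basal, suprabasal and wound-edge medians by less than 0.3.

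The balance of the 2 follicle layers was compared within each library, where library scaling cancels; this comparison was chosen after the values had been seen. Summed hair shaft keratins were 0.518, 0.206 and 0.337 times the summed inner root sheath keratins in NC 1, 2 and 3. The ratio was 0.635, 0.643 and 0.743 in SFRP2-siRNA 1, 2 and 3. SFRP2-siRNA 1, with 20.1 and 12.7 FPKM in the sums, thus had a ratio close to that of SFRP2-siRNA 2, and the groups did not overlap. By the median member in place of the sum, the ratio was 0.546, 0.192 and 0.254 in NC and 0.509, 0.859 and 0.660 in SFRP2-siRNA, and the groups did overlap. As a share of all keratin FPKM, the inner root sheath made up 24.9, 27.0 and 29.6% in NC 1, 2 and 3 and 0.217, 27.7 and 30.5% in SFRP2-siRNA 1, 2 and 3. The hair shaft made up 12.9, 5.56 and 9.97% in NC 1, 2 and 3 and 0.138, 17.8 and 22.6% in SFRP2-siRNA 1, 2 and 3, and basal keratins made up 30.7, 32.5 and 31.8% in NC 1, 2 and 3 and 66.8, 26.2 and 28.7% in SFRP2-siRNA 1, 2 and 3. Basal keratins took 66.8% of the keratin total of SFRP2-siRNA 1 against 26.2% to 32.5% elsewhere.

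The companion layer lies between the root sheaths, and Krt75 is its type II keratin. Krt75 (ENSMUSG00000022986) was at 83.5, 71.4 and 129 FPKM in NC 1, 2 and 3 and 1.70, 124 and 116 in SFRP2-siRNA 1, 2 and 3. As for the inner root sheath, SFRP2-siRNA 1 was lowest, 42.0-fold below the lowest other library. Krt79 (ENSMUSG00000061397), a keratin of the upper follicle and its opening, was at 86.1, 239 and 235 FPKM in NC 1, 2 and 3 and 75.6, 123 and 91.4 in SFRP2-siRNA 1, 2 and 3. It was lowest in SFRP2-siRNA 1 by 1.14-fold only, well within the spread of the other libraries, which differed by up to 2.77-fold. Its log2 fold change was -0.83 with all libraries (SE 0.43, adjusted p = 0.531 with limma) and -0.67 without SFRP2-siRNA 1.

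Keratins of simple, mucosal and other epithelia were scarce. Krt23 (ENSMUSG00000006777), a type I keratin with the highest level of this group, was at 26.4, 34.2 and 39.9 FPKM in NC 1, 2 and 3 and 4.75, 49.7 and 27.9 in SFRP2-siRNA 1, 2 and 3. Krt8 and Krt18 are the pair of simple epithelia and of Merkel cells. Krt18 (ENSMUSG00000023043) was at 4.07, 2.60 and 4.40 FPKM in NC 1, 2 and 3 and 0.973, 4.33 and 6.59 in SFRP2-siRNA 1, 2 and 3. Krt8 (ENSMUSG00000049382) was at 1.71, 0.981 and 2.28 FPKM in NC 1, 2 and 3 and 0.214, 2.58 and 3.78 in SFRP2-siRNA 1, 2 and 3. Both were lowest in SFRP2-siRNA 1 and highest in SFRP2-siRNA 3. Krt90 (ENSMUSG00000048699), a little-studied type II gene that lies between hair shaft genes and Krt75, was at 1.82, 0.868 and 1.79 FPKM in NC 1, 2 and 3 and 0.0552, 1.86 and 3.23 in SFRP2-siRNA 1, 2 and 3. The single member with an unadjusted p under 0.05 was Krt42 (ENSMUSG00000053654), a type I gene at the end of its cluster. It was at 0.218, 2.20 and 2.54 FPKM in NC 1, 2 and 3 and 0.0528, 0.188 and 0.373 in SFRP2-siRNA 1, 2 and 3. NC 1 fell among the treated libraries, so the groups overlapped, and a log2 fold change of -1.0 (SE 0.40, adjusted p = 0.518 with limma) did not pass adjustment. Without SFRP2-siRNA 1 its log2 fold change was -0.91. Krt19, Krt24 and Krt222 lay between 0.162 and 1.83 FPKM, with overlapping groups. Krt20, a keratin of gut and Merkel cells, was the 1 tested member whose groups did not overlap, at 0.576 to 0.609 FPKM in NC and 0.653 to 0.892 FPKM in SFRP2-siRNA, a log2 fold change of 0.12 (SE 0.11, adjusted p = 0.621 with limma; exact permutation p = 0.1, the smallest possible).

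Keratins that pair in 1 filament were set against each other within each library, as log2 ratios of FPKM. The inner root sheath pair Krt71/Krt25 was at -0.079, 0.27 and 0.19 in NC 1, 2 and 3 and -0.12, 0.026 and -0.087 in SFRP2-siRNA 1, 2 and 3. It spanned 0.39 on the log2 scale while Krt71 itself spanned 8.01, so the type I and type II genes, on separate chromosomes, were in nearly the same proportion in the library that had least of both. Krt5/Krt14 was at -0.57, -0.92 and -0.56 in NC 1, 2 and 3 and -0.91, -1.21 and -0.37 in SFRP2-siRNA 1, 2 and 3, with the groups overlapping. Krt1/Krt10 was at -0.96, -0.76 and -0.67 in NC 1, 2 and 3 and 0.11, -0.41 and -0.76 in SFRP2-siRNA 1, 2 and 3, and SFRP2-siRNA 1 was the single library with more Krt1 than Krt10. Krt6a/Krt16 spanned -2.25 to -0.67 and Krt8/Krt18 -2.18 to -0.75, each lowest in SFRP2-siRNA 1.

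Other ratios were added after the values had been seen. Krt16/Krt17, both wound-edge type I genes, was at -0.84, -1.27 and -1.71 in NC 1, 2 and 3 and 1.41, 0.032 and -2.02 in SFRP2-siRNA 1, 2 and 3. It was positive in SFRP2-siRNA 1, near 0 in SFRP2-siRNA 2 and negative elsewhere, with SFRP2-siRNA 3 lowest of all. Krt17/Krt14 was -3.22 in SFRP2-siRNA 1 and -1.65 to -0.76 in the other libraries, and Krt10/Krt14 was -3.86 there and -2.87 to -1.35 in the others. Relative to the basal keratin Krt14, that library was thus the lowest in Krt17 and Krt10 but not in Krt16, whose ratio to Krt14 was -1.81 there within a range of -2.99 to -1.62. Krt6b/Krt6a was at 0.70, -0.037 and -0.24 in NC 1, 2 and 3 and 1.15, 0.88 and 0.38 in SFRP2-siRNA 1, 2 and 3, and NC 1 fell among the treated libraries.

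**Figure D4:**
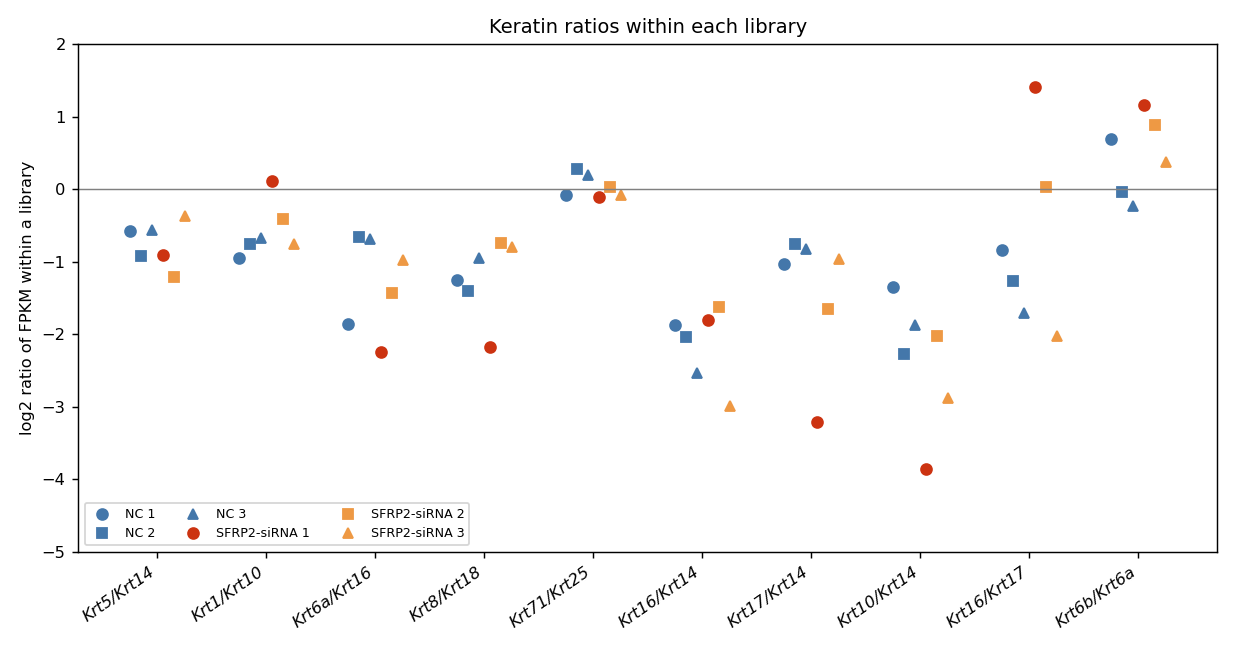
Log2 ratio of FPKM of 2 keratins within a library, 1 point per library, for 5 pairs that share a filament (left) and 5 ratios added after the values were seen (right). SFRP2-siRNA 1 (red) lay close to the others for Krt71/Krt25 and apart from them for Krt1/Krt10, Krt8/Krt18, Krt17/Krt14, Krt10/Krt14 and Krt16/Krt17.

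Keratin genes lie in a type I cluster on chromosome 11 and a type II cluster on chromosome 15, in the order of the RefSeq annotation of GRCm38.p6, with Krt18 beside the type II genes. Of the members, 27 lay on chromosome 11 and 26 on chromosome 15. Inner root sheath genes lay side by side on each chromosome, as did most hair shaft genes, while basal and suprabasal genes were in part scattered among others. Krt25, Krt26, Krt27 and Krt28, all 89.2-fold to 120-fold below the lowest other library, lay directly beside Krt10. For Krt10, SFRP2-siRNA 1 (271 FPKM) was above the lowest other library, SFRP2-siRNA 3 (222 FPKM), but below every NC library (501 to 785 FPKM). On chromosome 15, the run Krt75, Krt6b, Krt6a, Krt5 and Krt71 held a companion layer gene at 42.0-fold below, then 3 wound-edge and basal genes for which the lowest other library was at 0.256 to 0.503 of SFRP2-siRNA 1, and then an inner root sheath gene at 121-fold below. At both borders, the level in SFRP2-siRNA 1 changed with the layer from a gene to the next.

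**Figure D5:**
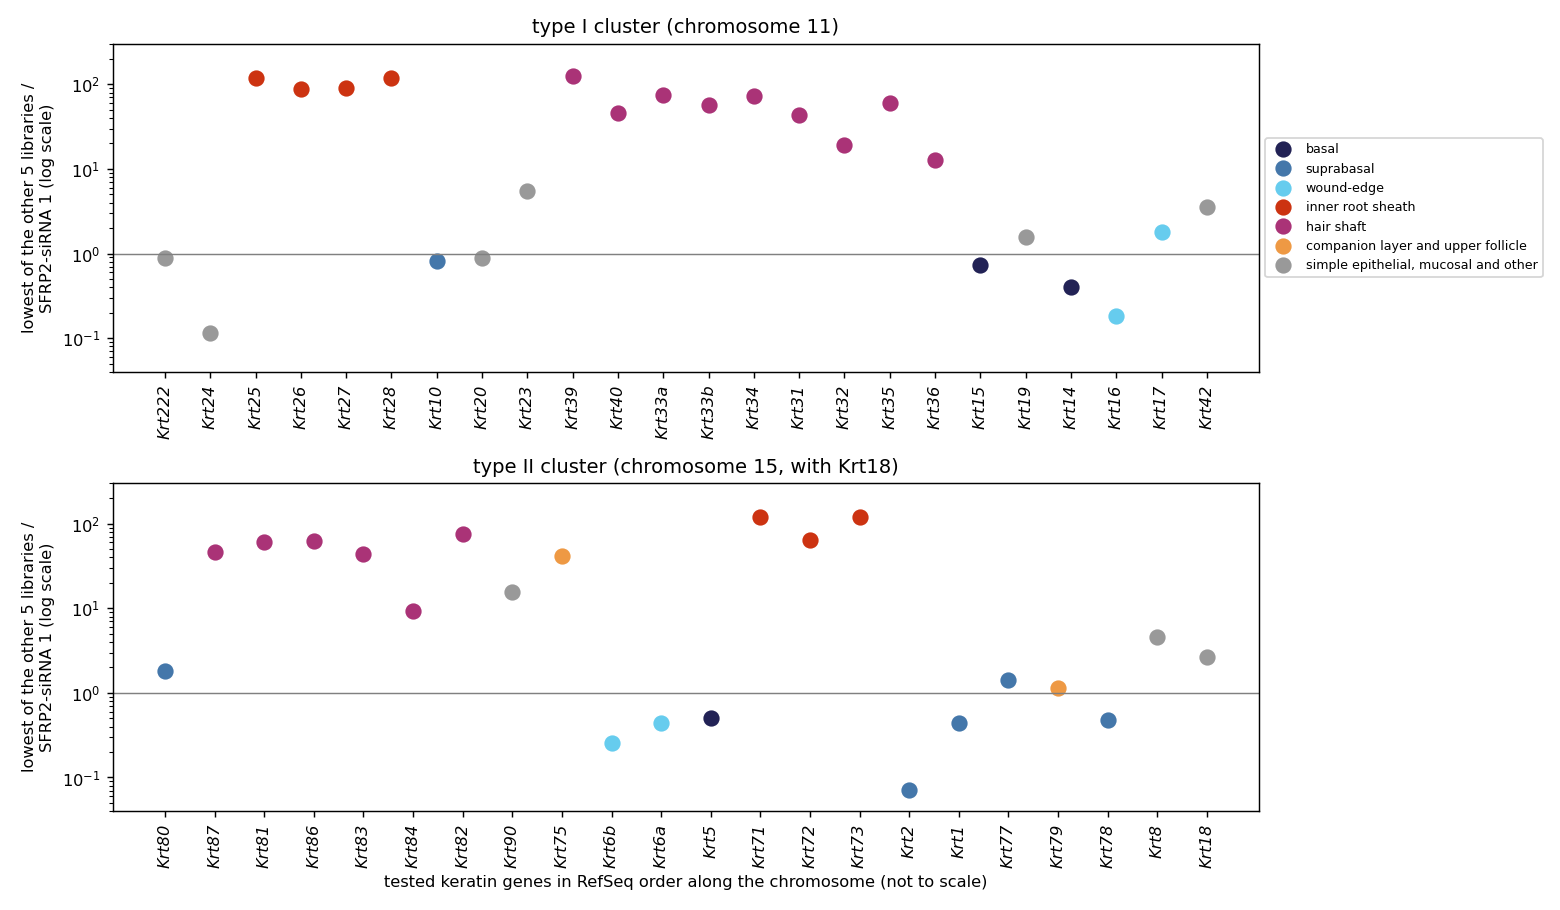
Lowest FPKM of the other 5 libraries divided by that of SFRP2-siRNA 1 (log axis, 1 means equal), for tested keratin genes in their order along each cluster (not to scale), coloured by layer. Inner root sheath and hair shaft genes lie at 9.34 to 127, and neighbouring basal, suprabasal and wound-edge genes at 0.070 to 1.83. Krt75 lies at 42.0 and Krt79 at 1.14, and simple, mucosal and other genes run from 0.116 (Krt24) to 15.7 (Krt90).

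The sequences before the start sites were read for members on either side of these borders. RefSeq promoters (GRCm38.p6) were matched for 36 of the 53 members. Shown first are the 100 bases upstream of the start of Krt28 (chr11:99374904-99375003) and of its neighbour Krt10 (chr11:99389365-99389464), then of the neighbours Krt5 (chr15:101712906-101713005) and Krt71 (chr15:101743098-101743197), all on the minus strand and written 5′ to 3′ with TATAAA in capitals. For Krt10 this is 1 of several RefSeq starts.
Krt28: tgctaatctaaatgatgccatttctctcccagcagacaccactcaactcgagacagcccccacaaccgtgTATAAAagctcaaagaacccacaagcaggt
Krt10: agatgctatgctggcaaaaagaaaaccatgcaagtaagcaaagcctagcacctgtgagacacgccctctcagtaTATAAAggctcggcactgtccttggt
Krt5: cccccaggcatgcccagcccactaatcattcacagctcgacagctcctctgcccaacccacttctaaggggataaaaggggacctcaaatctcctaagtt
Krt71: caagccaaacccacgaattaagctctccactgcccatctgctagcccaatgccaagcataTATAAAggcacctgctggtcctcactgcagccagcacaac
Krt28, Krt10 and Krt71 each hold TATAAA. Krt5 does not, but holds the shorter ATAAA in its last 60 bases. In the 250 bases upstream, on either strand, TATAAA was found in 17 of 36 keratin promoters (47.2%) and in 13% of the 27025 promoters of the table. It was found in all 7 inner root sheath promoters, 6 of 9 hair shaft promoters and 1 of 7 basal and suprabasal ones, that of Krt10; none of the wound-edge genes was matched. In Krt72 of the inner root sheath the match lies on the opposite strand, 203 bases upstream. ATAAA, which lies within TATAAA, was found in the last 60 bases upstream on the gene's own strand in 6 of 7 inner root sheath, 7 of 9 hair shaft and 3 of 7 basal and suprabasal promoters and in 7.93% of all promoters, a smaller difference between the layers than for TATAAA. A match is a description of these letters, not a site or a cause.

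The 4 hair shaft genes Krt33b, Krt34, Krt31 and Krt32 lie next to each other in this order and had 19.1-fold to 72.2-fold less transcript in SFRP2-siRNA 1 than in the lowest other library. Their 250 upstream bases are shown because their promoters hold the same 3 sets of letters in the same order. They lie on the minus strand at chr11:100029869-100030118, chr11:100041555-100041804, chr11:100050552-100050801 and chr11:100088270-100088519, and capitals mark CTTTGAA, a form of the LEF/TCF motif, then TTTATG and then TATAAA.
Krt33b: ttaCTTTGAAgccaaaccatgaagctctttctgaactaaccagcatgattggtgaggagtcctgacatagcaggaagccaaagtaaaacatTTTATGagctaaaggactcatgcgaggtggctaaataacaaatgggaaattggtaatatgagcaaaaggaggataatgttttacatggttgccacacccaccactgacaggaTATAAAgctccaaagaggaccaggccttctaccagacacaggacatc
Krt34: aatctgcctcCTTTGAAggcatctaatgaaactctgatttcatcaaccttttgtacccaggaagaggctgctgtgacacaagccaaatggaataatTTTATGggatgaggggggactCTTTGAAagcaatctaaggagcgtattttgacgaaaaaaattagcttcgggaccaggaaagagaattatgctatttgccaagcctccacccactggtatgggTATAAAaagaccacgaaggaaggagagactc
Krt31: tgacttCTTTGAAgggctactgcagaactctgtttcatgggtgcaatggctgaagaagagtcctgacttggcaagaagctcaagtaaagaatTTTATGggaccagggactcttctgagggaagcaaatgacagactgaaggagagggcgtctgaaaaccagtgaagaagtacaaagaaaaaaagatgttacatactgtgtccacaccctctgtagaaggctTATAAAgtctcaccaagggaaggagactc
Krt32: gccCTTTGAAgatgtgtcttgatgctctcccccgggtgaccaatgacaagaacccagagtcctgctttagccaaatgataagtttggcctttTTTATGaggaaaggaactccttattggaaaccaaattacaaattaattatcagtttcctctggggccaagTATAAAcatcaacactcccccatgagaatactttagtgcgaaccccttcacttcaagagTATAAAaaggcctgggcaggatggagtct
CTTTGAA begins 240 to 247 bases before the start in these 4 genes, with a second copy at 133 in Krt34. On either strand it was found in 5 of 9 hair shaft promoters, those of Krt31, Krt32, Krt33b, Krt34 and Krt39, in 0 of the other 27 keratin promoters and in 4.64% of all promoters. TTTATG begins 154 to 159 bases before the start in the 4 genes, and was searched for because it had been seen in them. It was found in 8 of 9 hair shaft promoters, 1 of 7 inner root sheath, 2 of 5 suprabasal, 0 of 2 basal, 1 of 2 companion layer and upper follicle and 4 of 11 simple, mucosal and other ones, in all 16 of 36 keratin promoters (44.4%), and in 11.1% of all promoters. These genes arose by duplication and share sequence, so their matches are not independent of each other.

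Genes that anchor keratin filaments or regulate keratin genes were compared from lists written by hand. Of 23 desmosome and keratin linker genes, 5 were higher and 18 lower in SFRP2-siRNA, with a median log2 fold change of -0.17 (0.12 without SFRP2-siRNA 1), and 0 were called (adjusted p with limma 0.523 to 0.915). The smallest unadjusted p-values were those of Pkp2, a desmosomal plaque protein (-0.29 on the log2 scale), Flg, the filaggrin of the cornified layer (-0.51), and Plec, which ties filaments to hemidesmosomes (0.35). Tchh, Dsg4 and Dsp were picked out after their values were seen. Tchh, the trichohyalin of the inner root sheath, was at 211, 539 and 693 FPKM in NC 1, 2 and 3 and 3.51, 637 and 381 in SFRP2-siRNA 1, 2 and 3. Dsg4, the hair shaft desmoglein, was at 5.84, 7.04 and 14.1 FPKM in NC 1, 2 and 3 and 0.0938, 17.0 and 12.8 in SFRP2-siRNA 1, 2 and 3. Both were low in the library in which the keratins of their layer were low. Dsp, the desmoplakin of all keratinocyte desmosomes, had 66.9 FPKM in SFRP2-siRNA 1 and also in NC 1. SFRP2-siRNA 1 was lowest for 13 of the 23 linker genes, against 14.3% of all genes. Among them were Dsc1 and Dsg2, at 1.63-fold and 1.60-fold below the lowest other library.

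Of 19 keratin gene regulators, 3 were higher and 16 lower, with a median of -0.22 (0.17 without SFRP2-siRNA 1), and 0 were called (adjusted p with limma 0.550 to 0.996). The smallest unadjusted p-values were those of Nfe2l2, a stress-response factor (0.25), Klf5, a factor of proliferating epithelium (0.22), and Hoxc13, a homeobox factor needed for hair shaft keratins (-1.19). Hoxc13 was at 18.9, 13.8 and 24.2 FPKM in NC 1, 2 and 3 and 0.435, 16.1 and 24.3 in SFRP2-siRNA 1, 2 and 3. The 5 regulators that follow were picked out after their values were seen. Dlx3, a homeobox factor of the hair matrix, was at 66.2, 34.5 and 75.1 FPKM in NC 1, 2 and 3 and 1.19, 64.8 and 77.9 in SFRP2-siRNA 1, 2 and 3. Msx2 and Lef1, also made in the matrix, were at 0.568 and 0.204 FPKM in SFRP2-siRNA 1, against 8.52 to 20.8 and 1.23 to 4.29 FPKM in the others, and Foxn1 was at 1.85 against 6.78 to 17.6 FPKM. Trp63, the factor of the basal layer, was at 14.6, 17.8 and 23.5 FPKM in NC 1, 2 and 3 and 14.6, 19.0 and 21.8 in SFRP2-siRNA 1, 2 and 3. SFRP2-siRNA 1 was lowest for 15 of the 19 regulators, factors of the epidermis such as Ovol1, Grhl1 and Klf4 among them. The lowest other library was 31.7-fold above it for Hoxc13, 29.0-fold for Dlx3 and 6.03-fold for Lef1. For Foxn1 (3.67-fold) and Ovol1 (3.63-fold) the gap was alike, and for Klf4 it was 1.03-fold. For Cux1 it was 1.52-fold. Gata3 was not lowest in SFRP2-siRNA 1, with 10.2 FPKM there and 9.71 FPKM in NC 2.

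Markers of other cell types were set beside these results, and their part in them was not tested. The 14 pan-epithelial genes summed, in FPKM, to 745, 972 and 1260.0 in NC 1, 2 and 3 and 576, 1099 and 819 in SFRP2-siRNA 1, 2 and 3. Of these genes 11 of 14 were lower in SFRP2-siRNA and 11 were lowest in SFRP2-siRNA 1. Their median log2 fold change was -0.16 with all 6 libraries and 0.071 without SFRP2-siRNA 1. The smallest unadjusted p-values were those of Itga6, Epcam and Cldn4. Pigment cells sit beside the hair matrix, and all 5 melanocyte genes were lowest in SFRP2-siRNA 1, at a sum of 4.35 FPKM against 25.4 to 215 FPKM. As with the hair shaft keratins, NC 2 was the lowest of the other 5 libraries for all 5, among them Mlana, Tyr and Tyrp1, those with the smallest p. The melanocyte median log2 fold change was -0.27 with all 6 libraries and 1.18 without SFRP2-siRNA 1. Sebaceous gland genes were not low in that library: 0 of 6 had their lowest value there, and the sum was 2624 FPKM against 706 to 6918 FPKM, most of it Scd1, which fat also expresses. Their median log2 fold change was 0.16 with all 6 libraries and 0.095 without SFRP2-siRNA 1. The smallest p-values were those of Scd1 (-1.99 on the log2 scale), Soat1 (0.43) and Awat2 (0.39). Scd1 thus went against the median. Its groups did not overlap, as for 3.92% of all genes that were lower, and it was not called (adjusted p = 0.518 with limma).

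Connective tissue and immune markers were higher under the siRNA label. All 9 fibroblast genes were higher, with a sum of 910.2 to 1999 FPKM in NC and 2195 to 2286 FPKM in SFRP2-siRNA, and all 9 macrophage genes, with 806 to 1354 and 1493 to 2096 FPKM. SFRP2-siRNA 1 held the highest macrophage sum. All 7 skeletal muscle genes were higher too, with sums of 3039 to 5943 and 3917 to 11345 FPKM, the largest in SFRP2-siRNA 3. All 7 adipocyte genes were lower, with sums of 1594 to 2089.9 and 802 to 2164 FPKM. Endothelial genes had 4 of 6 higher, with sums of 48.2 to 75.5 and 49.7 to 83.8 FPKM. Without SFRP2-siRNA 1 the endothelial median log2 fold change went from 0.14 to -0.075. The other medians kept their sign, going from 0.75 to 0.74 for fibroblasts and from 0.80 to 0.57 for macrophages. They went from 0.62 to 0.97 for muscle and from -0.65 to -1.08 for fat. No marker of these lists was listed at 0 in any library, and none was called. The smallest unadjusted p-values were those of Dcn, Thy1 and Col1a2 for fibroblasts, Itgam, Lyz2 and Csf1r for macrophages, Tnnt3, Myh4 and Mylpf for muscle, Lipe, Plin1 and Pparg for fat, and Vwf, Kdr and Tek for endothelium.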

How the data were processed

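Wound RNA was sequenced by the authors from paired-end mRNA libraries, and the table they deposited holds FPKM per Ensembl gene. Per the labels, HISAT2, featureCounts and Subread were used; versions, genome build and annotation are not given in the sources used here. Of the 33184 IDs, 32582 were given symbols by a reference name table. Low FPKM values were whole multiples of what 1 read is worth (within 0.05 reads for 98.7% of genes, with GENCODE vM21 lengths), which gave totals of 42.9 M to 47.1 M reads. Of values from 1 to 20 reads 64.6% were even, so mates were counted singly.

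The 16005 genes whose mean reached 0.5 FPKM were tested as log2(FPKM + 1), a scale that understates changes of low genes, with limma 3.58.1 in R 4.3.3 (lmFit, eBayes with trend; two-sided; Benjamini-Hochberg over all 16005 genes). This test, chosen for the deposited unit, replaced the count model of the study's methods; voom on the recovered reads was an alternative. On simulated data where 200 of 16005 genes differed by 2 log2 units it recovered 86.7% of them. That noise was drawn for each gene on its own, with no library apart from the rest. In the real data the SE was 1.95 for Krt71 and 1.91 for Krt33a, so this share does not carry over to such genes. Single genes also had a two-sided exact permutation test. Lists have no test of their own. Values in every library are given for the 4 members of a layer with the highest mean, for members at an unadjusted p under 0.05, and for pairs; of other lists, the 3 genes with the smallest p are named. The pair of Krt85 and Krt35 was not analysed here. The members and lists were chosen with earlier results of these data known. Groups and replicate numbers came from the sample titles, and no library duplicated another.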

Additional observations from a re-analysis of the deposited data

How the results depend on the processing

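No keratin, linker or regulator gene was called with limma under any of the 17 alternatives. At an unadjusted p under 0.05, without the limit on fold or with it, there was 1 keratin gene; this count was 2 without a filter, 0 with a filter at 2 FPKM, 3 with median-of-ratios scaling, 4 with the replicate block, 4 with estimated sample weights, 0 with voom on the recovered reads (added after the data were seen), and 0 (without NC 2 or NC 3) to 13 (without SFRP2-siRNA 1) when a library was left out. The cause was not tested. Libraries of the same replicate number were not treated as pairs in the main fit. Their deviations had correlations of -0.05, -0.15 and 0.38, which cannot settle whether they were paired. The replicate block called 0 genes.

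Of 439 fits of the 26 named genes 395 kept their direction and 44 reversed, in 18 genes, 28 of them on leaving out a library. Sample weights, which gave SFRP2-siRNA 1 a weight of 0.495 and SFRP2-siRNA 2 one of 5.27, reversed Krt1 (0.22), Krt5 (-0.17), Krt15 (-0.12), Krt18 (0.23), Krt23 (0.15), Krt31 (0.98), Krt33a (1.06), Krt75 (0.013), Krt83 (1.03), Krt86 (1.08) and Krt90 (0.28). Median-of-ratios scaling reversed Krt5 (-0.052), Krt8 (-0.019) and Krt15 (-0.046), and Krt8 was -0.17 with a pseudocount of 0.1 and -0.25 with voom. That scaling moved the median of all genes from 0.125 to 0.005. Leaving out each library gave -0.87 to 0.14 for Krt1, -0.14 to 0.36 for Krt5, -0.72 to 0.27 for Krt6a, -0.32 to 0.67 for Krt8, -0.030 to 0.61 for Krt14, -0.082 to 0.43 for Krt15, -0.18 to 1.04 for Krt16, -0.51 to 0.46 for Krt18, -1.40 to 0.17 for Krt23, -3.39 to 0.45 for Krt25, -3.55 to 0.091 for Krt27, -2.11 to 1.39 for Krt31, -2.34 to 1.41 for Krt33a, -3.61 to 0.29 for Krt71, -2.38 to 0.39 for Krt75, -2.23 to 1.40 for Krt83, -2.30 to 1.41 for Krt86 and -0.50 to 0.51 for Krt90. It gave -3.40 to -0.015 for Krt28, -1.15 to -0.47 for Krt17, -1.10 to -0.27 for Krt80, -1.31 to -0.58 for Krt79, -1.49 to -0.72 for Krt42 and 0.025 to 1.15 for Krt6b, with no change of sign. The median ran from -0.030 to 0.43 for basal, -0.98 to -0.30 for suprabasal and -0.33 to 0.66 for wound-edge keratins, from -3.39 to 0.11 for the inner root sheath and from -2.02 to 1.24 for the hair shaft, the high end without SFRP2-siRNA 1 in both of these follicle layers. With 3 libraries a group, 1 library sets the sign of both. Depth limits values such as those of Krt39 and Krt42 in SFRP2-siRNA 1, which rested on 4 reads each.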
